A study of Mus musculus with 46 samples.

Results

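The comparison described here is the interaction of hairpin and doxycycline in a pair of inducible AML12 lines. AML12 is an established mouse hepatocyte line. For each gene, the difference between the Falcor hairpin line and the control hairpin line without doxycycline was subtracted from the same difference with doxycycline, on a log2(value + 1) scale. The members are therefore 12 of the 46 samples of the series, 3 in each of 4 groups: the control hairpin line (shCtrl) untreated, the Falcor hairpin line (shLinc) untreated, and each line with doxycycline added. Genes were described where their mean deposited value over these 12 libraries was at least 3, which kept 9834 of the 55774 genes of the table. No allele other than the hairpin construct is labelled, the 4 groups share the cell line, and the 2 hairpins are carried by separate lines. The labels give no doxycycline dose or duration, no number of clones behind a line, and nothing on whether replicates came from separate cultures. The p-values therefore reflect only how far libraries of the same group lie from each other, a spread that could be technical. This spread was pooled over all groups of the table. In such bulk samples fewer cells of a type and less RNA per cell cannot be told apart. Another 6 libraries of the same table, labelled restored (DoxMinus), and the separate conventional hairpin libraries of AML12 were read beside the interaction.

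Falcor is a long noncoding RNA transcribed next to Foxa2, the gene of a forkhead factor of endoderm and liver. A short hairpin RNA is processed by the microRNA machinery and guides Argonaute to its target, and in an inducible construct its transcription is turned on by doxycycline. If the lines were alike before induction and doxycycline acted alike in both, the interaction would be the effect of inducing the Falcor hairpin. It is a difference of differences: a positive value arises equally when the Falcor line is relatively high with doxycycline and when it is relatively low without it. Doxycycline itself is known to impair mitochondrial translation in cultured cells.

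The targeted RNA was examined first. Falcor (9030622O22Rik, chromosome 2, 147944740 to 148040203 in GENCODE vM21 on mm10, a lincRNA beside Foxa2 at 148042877 to 148046969) had deposited values of 4, 6 and 5 in the untreated control line and 12, 9 and 10 in the untreated Falcor line. With doxycycline the values were 5, 4 and 5 in the control line and 2, 2 and 3 in the Falcor line. In the restored libraries they were 5, 4 and 5 against 11, 9 and 11. The Falcor line was thus the higher of the lines in every library without doxycycline and the lower in every library with it, and the groups did not overlap. The interaction was -1.53 ± 0.20 (log2, SE; limma adjusted p = 4.17e-06), made up of -0.78 with doxycycline and 0.75 without it. The separate conventional libraries had 38, 11 and 24 counts of it with the control hairpin and 7, 4 and 5 with the Falcor hairpin, a difference of -2.07 (log2; edgeR adjusted p = 0.00242). The neighbouring Foxa2 had an interaction of 0.32, which was 0.12 with no rescaling between libraries (adjusted p = 0.0589) and 0.18 with the length trend removed. Zc3h11a, an mRNA export factor targeted elsewhere in the series, had -0.32, which was -0.16 (adjusted p = 0.246) once the trend with transcript length was removed.

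Only part of the hepatocyte marker list was present. Of 11 markers 8 were above 0 in all 12 libraries and Tat reached 1, with summed values of 4752 to 4839 in the untreated control line, 4657 to 4872 in the untreated Falcor line, 5723 to 5859 in the control line with doxycycline and 5468 to 5578 in the Falcor line with it. Cps1 and Cyp2e1, defining enzymes of mature hepatocytes, were listed at 0. Most of these sums came from the keratins Krt8 (1852 to 2769) and Krt18 (1500 to 2359), which other epithelia also express, while Apoa1 lay at 1 to 5, Serpina1a at 3 to 7, Alb at 31 to 91 and Ttr at 324 to 1215. All 9 endothelial markers were listed at 0, and of 11 fibroblast and stellate markers only Dcn was above 0, at no more than 1. Among macrophage markers Adgre1, Ptprc, Lyz2 and Clec4f were listed at 0, while Cd14 lay between 94 and 380. The cholangiocyte markers were at 5 of 8, with summed values of 1511 to 1584 and 1571 to 1619 in the untreated control and Falcor lines and of 1247 to 1269 and 1050 to 1069 with doxycycline. Their part in the results was not tested.

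The library of untreated control replicate 1 stood apart and enters every interaction value. Its deviation from its group fell with transcript length (Spearman rho of -0.67 across genes), while the other libraries of that group gave 0.56 and 0.52 and the remaining groups -0.18 to 0.15. Each library was compared with the mean of the others of its group, so the 0.56 and 0.52 also hold replicate 1. The variance over the mean within a group had a median across genes of 0.165 in the untreated control line and 0.0448 to 0.054 in the other groups. The p-values use 1 spread pooled over groups, so the wider spread of this group does not enter as its own. Across 9546 genes with a length the interaction itself had a rho of -0.36, the untreated hairpin difference 0.40 and the difference with doxycycline -0.14. The restored hairpin difference, in which untreated control replicate 1 is no term, had a rho of 0.30. With the genes cut into 5 equal groups by length, from the shortest to the longest, the median interaction was 0.30, 0.18, 0.04, -0.09 and -0.37. Genes are not independent replicates, and these values carry no p. Column sums were 859568 to 883564 over the 18 libraries, so the deposited values are scaled and the sequencing depth behind them is unknown.

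Of the 9834 genes tested 6416 were called (65.2% at adjusted p below 0.05), 3348 of them higher (34%) and 3068 lower (31.2%). A call in this comparison is therefore the common case, and counts of called list members below are to be read against these shares. Calls were also common in the parts of the interaction: the hairpin difference without doxycycline in 65.5% of genes (30.2% higher and 35.3% lower in the Falcor line) and with it in 52.5%, and the response to doxycycline in 66.7% in the control line and 74.2% in the Falcor line. The size of the interaction was mostly small, with a median absolute value of 0.413, and 1014 called genes exceeded 1 in size, 409 higher and 605 lower. The split between higher and lower depended on the scaling. With no rescaling between libraries the median interaction moved from 0.018 to -0.164, 2259 genes were called higher and 4010 lower, and 36% of called genes were higher against 52.2%. Of the 6416 called genes 5327 were also called with the same sign with no rescaling and 0 with the opposite sign. With the length trend removed 5390 were called with the same sign and 16 with the opposite one. At the minimum mean of 3 itself, Arap2 had an interaction of -1.40, Dpy19l4 of -0.82 and Asb6 of 0.36, while Zdhhc15, Zfp84 and Zmym1, with a mean of 2.917, were left out.

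The called genes were then sorted by their 2 hairpin differences. In 2445 genes (38.1%) both differences were called and had opposite signs, described here as crossed. In 2056 genes (32%) a difference was called without doxycycline and was not called, and lay within 0.25 of 0, with it; these are described as lost. In 1076 genes (16.8%) the difference was called with doxycycline only and lay within 0.25 of 0 without it, described as arose. A difference in 1 direction was larger with doxycycline in 186 genes (2.9%), called enlarged, and smaller in 324 (5.05%), called reduced, and the remaining 329 met none of these rules. In most called genes a hairpin difference was thus called before doxycycline was added. That difference is a term of the interaction, so selecting on the interaction favours such genes. Over all tested genes it was called in 65.5%. Leaving out untreated control replicate 1 gave 1185 arose, 1655 lost and 2837 crossed, and removing the length trend gave 1206, 1782 and 2568. Tested against a bound of 0.5 instead of 0, 83 genes arose, 336 were lost and 34 crossed.

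**Figure D1:**
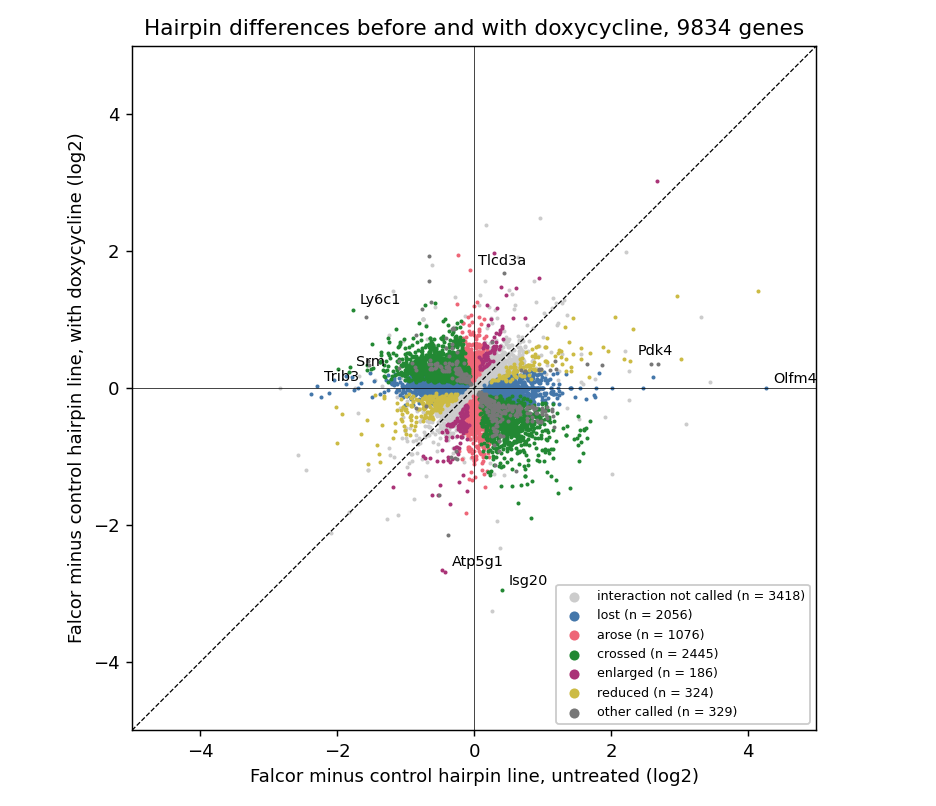
Each point is 1 of 9834 genes, with the Falcor minus control difference of the untreated lines on the horizontal axis and that with doxycycline on the vertical axis, both as log2; the dashed line marks equal differences, so the vertical distance from it is the interaction. Crossed genes fill the upper left and lower right, lost genes the horizontal axis and arose genes the vertical one; Olfm4 lies on the horizontal axis at 4.26 and Isg20 far below it at -2.95.

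Seen by line, the doxycycline response was larger in the Falcor line for 64.7% of called genes, against 60.5% of all tested genes. The median absolute response was 0.418 in the Falcor line and 0.306 in the control line. Among called genes 1678 (26.2%) had a response past the threshold in the Falcor line only, and 1029 (16%) in the control line only. In 1233 genes (19.2%) the lines responded in opposite directions. In 1667 genes (26%) both responded the same way with the larger response in the Falcor line, and in 593 genes (9.24%) with the larger one in the control line. The median absolute hairpin difference was 0.296 without doxycycline, 0.212 with it and 0.249 in the restored state, so by this measure the lines lay closest together with doxycycline. The untreated value includes the outlying control replicate 1 and the length trend, and their share in it was not tested.

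The largest change among the named genes belonged to the lost pattern. Olfm4, a secreted glycoprotein of gut and progenitor epithelium, was listed at 0 in all 3 untreated control libraries, at 20, 20 and 20 in the untreated Falcor line, and at 0 in all 6 libraries with doxycycline. It came back to 6, 5 and 5 in the restored Falcor line and stayed at 0 in the restored control line. Its interaction of -4.26 depends on the pseudocount, since the other groups are at 0, and was -2.47 with a pseudocount of 4. Olfm4 reached the minimum mean of 3 only through the untreated Falcor line. With both lines at 0 under doxycycline, no hairpin difference could show there.

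Mmp7, the epithelial protease matrilysin, had values of 2, 1 and 2 against 15, 15 and 16 before doxycycline and 0 in all 6 libraries with it. In the restored state it was 3, 3 and 5 against 26, 30 and 27. Mmp7 too reached the minimum mean only through the untreated Falcor line, and at 0 with doxycycline it could show no difference. Ppp1r1b, a phosphatase inhibitor, was 7, 8 and 8 against 56, 65 and 56 untreated, and 4, 3 and 4 against 4, 6 and 3 with doxycycline. Xdh, the xanthine oxidoreductase of purine breakdown, was 3, 8 and 8 against 31, 30 and 30 untreated and 4, 3 and 4 in both lines with doxycycline. For these genes the lines differed only in libraries without doxycycline, and their interactions were -2.47, -2.44 and -2.01. The low first value of Xdh is that of the library that stood apart.

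The arose genes were fewer and their largest members moved less. Tlcd3a, a membrane protein of the TLC domain family, had values of 18, 18 and 16 in the untreated control line and 18, 20 and 19 in the untreated Falcor line. With doxycycline they were 12, 10 and 11 against 38, 38 and 39, and in the restored state 17, 17 and 16 against 18, 18 and 18. The untreated lines overlapped, the restored lines lay close together and the lines with doxycycline were fully apart, and the interaction was 1.78 ± 0.09 (adjusted p = 7.81e-11). With the conventional Falcor hairpin Tlcd3a was also higher, by 2.21 ± 0.22 (edgeR adjusted p = 2.15e-07).

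Krcc1, of the same pattern in the other direction, had values of 16, 16 and 14 against 20, 19 and 20 untreated and 29, 32 and 30 against 10, 9 and 13 with doxycycline (interaction -1.60). Its conventional difference had the opposite sign, 0.62 (edgeR adjusted p = 0.000235). Prl2c2, a placental hormone of the proliferin family, was 4, 2 and 3 against 3, 3 and 3 untreated and 29, 32 and 28 against 7, 8 and 8 with doxycycline, so that it rose in both lines and less in the Falcor line (-1.71). It belongs to a family of near-identical genes among which reads may have been split. Tead2, a partner of YAP, Ctxn1, Ckmt1 and Osgepl1 had interactions of 1.47, 1.21, -1.41 and -1.40. Fn1, fibronectin, had 1.19 (adjusted p = 0.04), but its untreated control values were 43, 155 and 164. Its call was lost without any of 11 single libraries, for example at 0.88 (adjusted p = 0.098) without untreated control replicate 3, and the value was 1.78 without the outlying replicate 1 and 2.09 with the length trend also removed.

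Isg20 and Atp5g1 were low in the Falcor line with doxycycline. Isg20, an interferon-induced exonuclease (chromosome 7, 78913424 to 78920396), had values of 60, 61 and 62 in the untreated control line and 86, 97 and 94 in the untreated Falcor line. With doxycycline it was 73, 70 and 63 in the control line and 8, 8 and 8 in the Falcor line, and in the restored state 51, 51 and 50 against 38, 39 and 34. The control line hardly moved, while the Falcor line with doxycycline lay below every other library. The interaction was -3.35 ± 0.08 (adjusted p = 1.95e-14), and the conventional difference was -0.79 (edgeR adjusted p = 1.62e-07).

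Atp5g1 encodes a copy of subunit c of the mitochondrial ATP synthase (chromosome 11, 96068852 to 96075670). Its values were 302, 264 and 271 against 226, 244 and 236 untreated, 244, 248 and 230 against 33, 40 and 37 with doxycycline, and 264, 266 and 247 against 171, 174 and 180 in the restored state. The interaction was -2.25 ± 0.10 (adjusted p = 1.57e-11). The genes Atp5g2 and Atp5g3 encode the same mature subunit and had interactions of 0.91 and 0.46, or 0.58 and 0.13 with the length trend removed. Its conventional difference was 0.11 (edgeR adjusted p = 0.576). Abhd17c, a depalmitoylase, Tspan17, a tetraspanin, and Mdfic shared the enlarged pattern, at -1.39, -1.34 and -1.15.

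**Figure D2:**
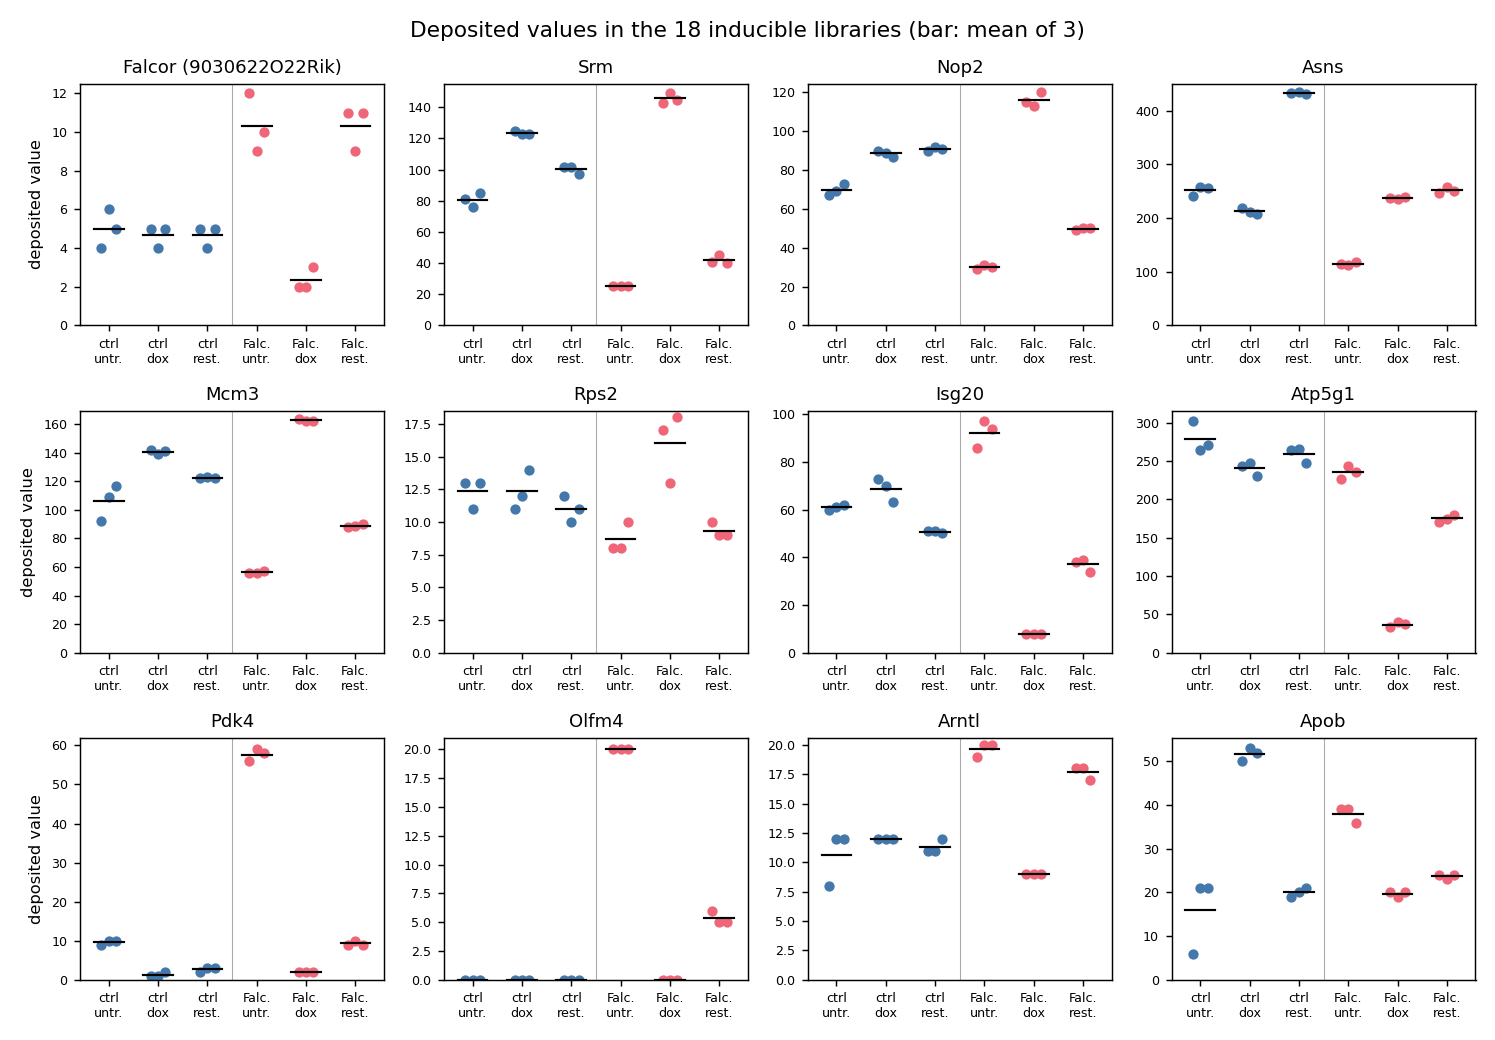
Deposited values (vertical axis, starting at 0) of 12 genes in the 18 inducible libraries, with 1 point per library and a bar at the mean of 3; blue is the control hairpin line and red the Falcor hairpin line, each untreated, with doxycycline (dox) and restored (rest.). In the Falcor line Srm, Nop2, Asns and Mcm3 are lowest untreated and higher with doxycycline, while Isg20 and Atp5g1 are lowest with doxycycline and Olfm4 is above 0 only without it.

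Growth-related genes formed the broadest positive interaction. Cells that proliferate make ribosomes in the nucleolus, a process that needs rRNA-processing factors, ribosomal proteins, nucleotides and polyamines. Srm, the spermidine synthase of polyamine synthesis (chromosome 4, 148591503 to 148594993), had values of 81, 76 and 85 against 25, 25 and 25 untreated. With doxycycline the values were 125, 123 and 123 against 143, 149 and 145, and in the restored state 102, 102 and 97 against 41, 45 and 40. The Falcor line lay far below the control line in both states without doxycycline and above it with doxycycline. The interaction was 2.07 ± 0.07 (adjusted p = 8.64e-13), of which -1.83 was the untreated difference and 0.24 that with doxycycline.

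Ribosome biogenesis factors, a list added after values of these data had been seen, followed the same course. Of 80 tested 69 were higher and 2 were lower (the helicases Ddx52, -0.47, and Ddx10, -0.46), with a median of 0.87, against 34% and 31.2% and a median of 0.018 over all genes. The median was 0.69 with no rescaling and 0.86 with the length trend removed. Their median doxycycline response was 1.41 in the Falcor line and 0.43 in the control line, and the median hairpin difference was -0.70 untreated, 0.18 with doxycycline and -0.63 restored. Nop2, an rRNA methyltransferase, was 67, 69 and 73 against 29, 31 and 30 untreated and 90, 89 and 87 against 115, 113 and 120 with doxycycline (interaction 1.76 ± 0.05). Grwd1, a ribosomal protein chaperone, was 62, 60 and 60 against 20, 23 and 25 untreated and 86, 83 and 88 against 108, 106 and 112 with doxycycline (1.91). Ppan, Mybbp1a, Nhp2 and Rrp9, factors of pre-rRNA processing and nucleolar function, had 1.79, 1.78, 1.77 and 1.76. In each of the 6 named members the untreated difference was the larger part. Trmt61a, a subunit of a tRNA methyltransferase, was also among the most raised genes of all (2.14), with values of 10, 11 and 9 against 3, 3 and 4 and then 12, 14 and 13 against 20, 21 and 21.

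Cytosolic ribosomal proteins had smaller values in the same direction: 62 of 70 were higher and 1 was lower (Rpl5, -0.36), with a median of 0.52. With no rescaling the median was 0.32. With the length trend removed it was 0.26, with 49 higher and 4 lower. Rpl29 was 31, 30 and 31 against 22, 23 and 26 untreated and 32, 34 and 33 against 44, 43 and 44 with doxycycline (interaction 0.95), so the groups did not overlap in either state. Rps2, Rpl34, Rpl27, Rpl36 and Rpl12 had 0.99, 0.91, 0.83, 0.81 and 0.79. With the length trend removed Rpl29, Rpl34, Rpl27, Rpl36 and Rpl12 were at 0.62, 0.58, 0.51, 0.52 and 0.51. Ribosomal protein genes have many processed pseudogenes, among which reads may have been divided. The conventional libraries went the other way: of 69 ribosomal protein genes tested there 0 were higher and 53 lower.

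Nucleotide synthesis genes, also added after values had been seen, gave 15 higher and 4 lower of 20 (Adss -0.51, Prps2 -0.45, Cmpk1 -0.37 and Gmps -0.26), with a median of 0.85 and of 0.66 with no rescaling. Atic, which completes purine synthesis, was 95, 107 and 107 against 49, 51 and 53 untreated and 112, 122 and 115 against 166, 166 and 165 with doxycycline. Its interaction was 1.70 ± 0.05 (adjusted p = 1.02e-13), and its conventional difference 1.34 (edgeR adjusted p = 9.84e-06). Cad, which starts pyrimidine synthesis, had 1.55 here and 0.94 there (edgeR adjusted p = 2.49e-09). Gart, Nme1, Umps and Impdh2 had interactions of 1.42, 1.34, 1.16 and 1.09.

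DNA replication genes gave 31 higher and 2 lower of 35 (Pola1 -0.53 and Rrm2 -0.27), with a median of 0.93, of 0.76 with no rescaling and of 0.96 with the length trend removed. The median response to doxycycline was 1.31 in the Falcor line and 0.43 in the control line. Mcm3, of the replicative helicase, was 92, 109 and 117 against 56, 56 and 57 untreated and 142, 139 and 141 against 164, 162 and 162 with doxycycline (interaction 1.29). Ccne1, the cyclin of S phase entry, was 14, 14 and 14 against 7, 7 and 6 and then 24, 22 and 24 against 33, 33 and 33 (1.63). Cdc6, Pold1, Uhrf1 and Rfc3 had 1.53, 1.44, 1.38 and 1.24. With the conventional hairpin 2 of 31 were higher and 6 lower.

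Mitosis genes did not move as a block. Of 29 tested 13 were higher and 9 lower, with a median of 0.13 that was -0.06 with no rescaling. Cdc20, Ube2c, Birc5, Plk1, Cdk1 and Aurka, which drive or complete cell division, were the largest at 1.07, 1.05, 1.04, 1.04, 0.95 and 0.94. Among p53 targets 10 were higher and 8 lower of 21, with Bbc3 at 0.96 and Gadd45a at 0.79 (0.50 with the length trend removed), and Rrm2b at -1.22 and Ccng1 at -0.95. That list's median was 0.15, or -0.04 with no rescaling.

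Amino acid supply showed the same direction. ATF4 is the transcription factor induced when eIF2 is phosphorylated under amino acid or mitochondrial stress, and it binds composite elements with C/EBP partners. Of 26 tested targets 22 were higher, 1 was lower (Vldlr) and 3 did not pass (Cbs 0.15, Sesn2 0.08 and Psat1 -0.06). The median response was 0.82 in the Falcor line and -0.23 in the control line, and the median hairpin difference was -1.22 untreated and 0.07 with doxycycline. The letters TGATGNAA, the composite element on either strand, were searched in the 250 bases before each RefSeq start (GRCm38.p6). They were found for 169 of 7578 tested genes (2.23%), and for 2.16% of genes called higher and 2.48% of genes called lower. Among called genes over 1 in size the shares were 3.46% of higher and 2.11% of lower genes. Of the 23 list members with a promoter 6 held them (26.1%). The list was made of known ATF4 targets, so its share does not bear on the interaction. The 6 matches are shown, as the 30 bases around the match for Asns, Nupr1 and Vldlr and as the stretch upstream of the GENCODE gene for Chac1, Pycr1 and Pck2, because they hold the element in members that moved both ways; capitals mark the match and each reads 5′ to 3′ on the gene's strand.
Chac1 (chr2:119350992-119351228, plus strand): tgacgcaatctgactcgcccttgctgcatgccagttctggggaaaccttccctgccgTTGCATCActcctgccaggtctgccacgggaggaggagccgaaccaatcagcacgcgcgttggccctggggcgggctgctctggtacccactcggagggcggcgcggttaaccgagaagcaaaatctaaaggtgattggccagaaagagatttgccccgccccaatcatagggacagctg
Nupr1 (chr7:126625562-126625591, minus strand): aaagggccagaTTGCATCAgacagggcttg
Asns (chr6:7693214-7693243, minus strand): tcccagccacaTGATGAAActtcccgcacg
Pycr1 (chr11:120643770-120643998, minus strand): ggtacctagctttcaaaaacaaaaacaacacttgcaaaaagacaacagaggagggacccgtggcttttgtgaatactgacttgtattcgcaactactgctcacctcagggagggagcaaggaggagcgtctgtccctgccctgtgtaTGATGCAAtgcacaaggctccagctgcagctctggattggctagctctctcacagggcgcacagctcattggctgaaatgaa
Pck2 (chr14:55540016-55540265, plus strand): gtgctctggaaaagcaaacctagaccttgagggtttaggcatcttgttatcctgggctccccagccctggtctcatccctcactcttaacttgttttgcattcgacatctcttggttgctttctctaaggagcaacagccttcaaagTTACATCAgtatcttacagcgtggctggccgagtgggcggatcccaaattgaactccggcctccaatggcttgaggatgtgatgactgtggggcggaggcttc
Vldlr (chr19:27216809-27216838, plus strand): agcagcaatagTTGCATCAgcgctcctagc
Asns makes asparagine and was 240, 258 and 256 against 114, 113 and 118 untreated and 218, 212 and 208 against 238, 235 and 239 with doxycycline. Chac1, a glutathione-degrading enzyme, was 36, 36 and 36 against 10, 10 and 8 untreated and 13, 15 and 15 against 11, 13 and 11 with doxycycline (interaction 1.75). Its interaction came with a fall in the control line (-1.26) and a smaller rise in the Falcor line (0.49). Nupr1, a stress-induced chromatin protein, behaved likewise, with responses of -1.07 and 0.48 (interaction 1.56). Pycr1, of proline synthesis, and Pck2, a mitochondrial carboxykinase, had interactions of 1.17 and 0.75. Vldlr, a lipoprotein receptor, was 9, 16 and 13 against 20, 20 and 20 untreated and 15, 18 and 20 against 10, 10 and 11 with doxycycline (-1.19 ± 0.17, adjusted p = 1.4e-05). A shared match therefore went with values in both directions. Slc7a5, a large neutral amino acid transporter without a named match, had 1.72. In the conventional libraries 13 of 25 ATF4 targets were higher and 6 lower, Chac1 being higher by 1.51 (edgeR adjusted p = 0.000136) and Pycr1 lower, at -0.70 (edgeR adjusted p = 0.00121).

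The E-box letters CACGTG, read on both strands over the same window, were no more frequent before ribosome biogenesis genes than before other genes. They were present for 6 of 72 (8.33%) against 807 of 7578 tested genes (10.6%). For nucleotide synthesis genes the count was 4 of 17 (23.5%). Other lists had similar shares, 3 of 13 (23.1%) for cytosolic aminoacyl-tRNA synthetases and 4 of 23 (17.4%) for ATF4 targets. Lower shares were found for cytosolic ribosomal proteins (9.8%), DNA replication (7.14%) and fatty acid oxidation genes (0%).

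Cytosolic aminoacyl-tRNA synthetases, which charge tRNAs, gave 17 higher and 1 lower (Dars, -0.23) of 20, with a median of 0.62, of 0.43 with no rescaling and of 0.57 with the length trend removed. Mars1 was 92, 105 and 108 against 62, 65 and 67 untreated and 81, 81 and 83 against 93, 94 and 95 with doxycycline (interaction 1.03). Aars, Cars, Farsa, Iars and Yars had 1.03, 1.03, 1.01, 0.98 and 0.96. Endoplasmic reticulum chaperones, the targets of the unfolded protein response, stood apart from this: 5 of 19 were higher and 7 lower, with a median of 0.00, and with no rescaling 3 were higher and 12 lower. Hyou1 was at 0.65 and Sdf2l1 at 0.42, the latter 0.12 (adjusted p = 0.191) with the length trend removed, and Hsp90b1, Dnajc3, Canx and Dnajb9 were at -0.84, -0.84, -0.58 and -0.57.

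**Figure D3:**
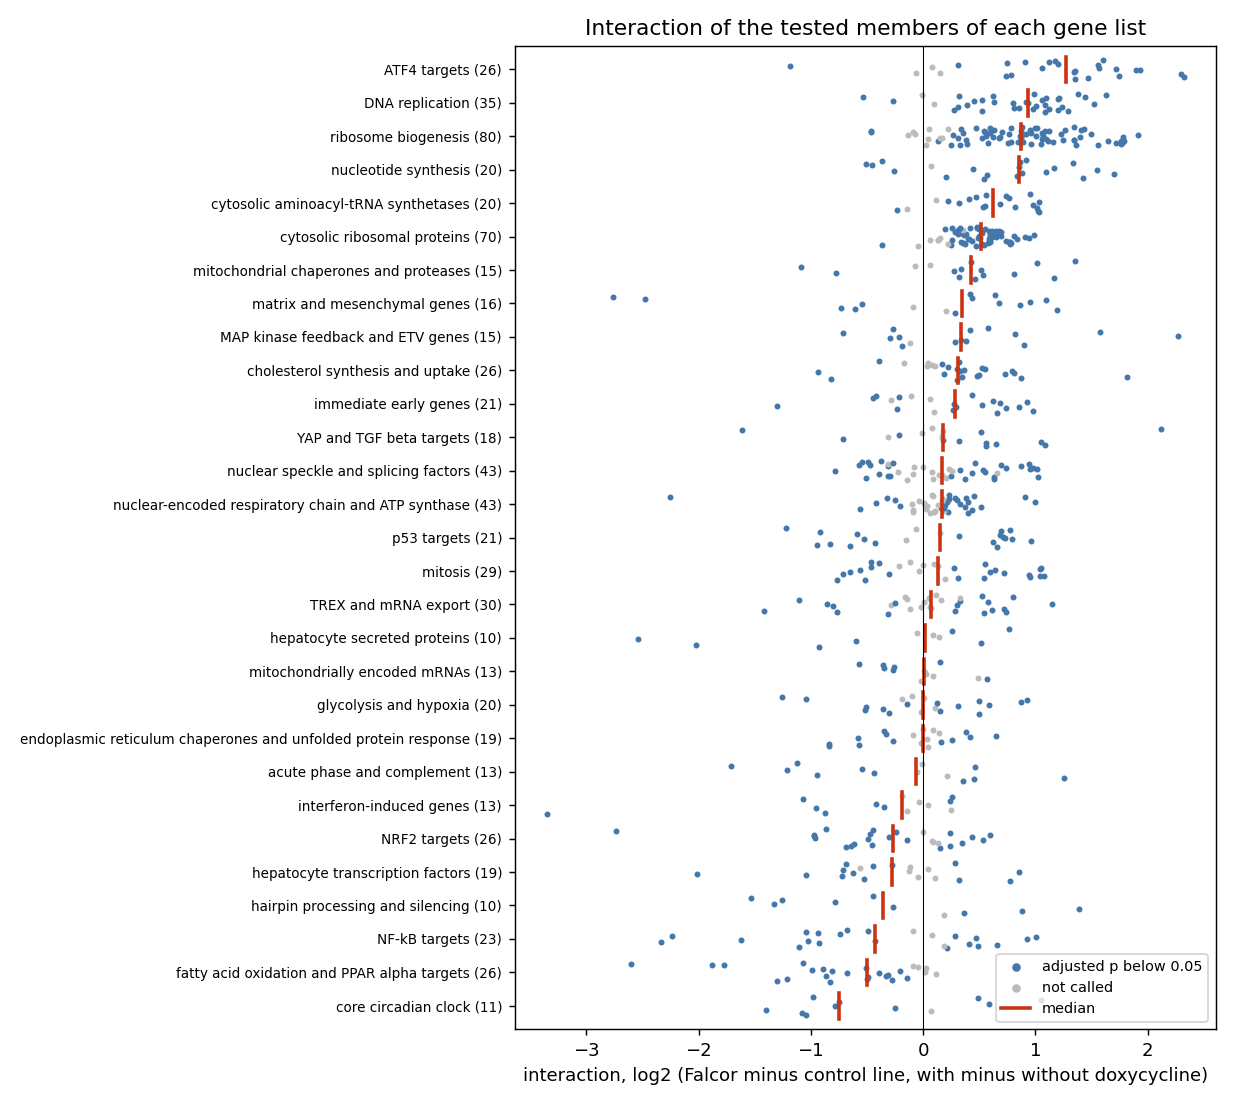
Interaction (log2, horizontal axis) of every tested member of each gene list, with the number tested in parentheses; blue points passed an adjusted p below 0.05, grey points did not, and the red bar is the list median. ATF4 targets, DNA replication and ribosome biogenesis lie mostly above 0 (medians 1.27, 0.93 and 0.87) and fatty acid oxidation below it (median -0.50).

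Mitochondrial genes were mixed. Among mitochondrial chaperones and proteases 11 of 15 were higher and 2 lower (Yme1l1 -1.09 and Clpx -0.78, both proteases or their unfoldases), with a median of 0.43 that was 0.25 with no rescaling. Hspe1, the cochaperone of HSP60, was 223, 202 and 178 against 115, 118 and 127 untreated and 206, 210 and 200 against 237, 244 and 246 with doxycycline (1.17). Htra2 and Clpp had 1.01 and 0.81, the latter 0.49 with the length trend removed. Of 13 mitochondrially encoded mRNAs 2 were higher (mt-Nd2 0.57 and mt-Cytb 0.15) and 5 lower, and with the length trend removed 1 was higher and 8 lower. The 5 were both ATP synthase genes, mt-Atp8 (-0.57) and mt-Atp6 (-0.36), and the 3 cytochrome oxidase genes, mt-Co1 (-0.27), mt-Co2 (-0.35) and mt-Co3 (-0.26). mt-Nd3 was at 0.49 and did not pass (adjusted p = 0.146). With the length trend removed mt-Nd2 was 0.26, mt-Atp6 -0.68, mt-Co2 -0.67 and mt-Co1 -0.49.

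Nuclear genes of the respiratory chain and ATP synthase had no stable direction. Of 43 there were 19 higher and 6 lower with a median of 0.17, but 10 higher and 13 lower with a median of -0.02 with no rescaling, and 9 higher and 24 lower with a median of -0.14 with the length trend removed. Cox5a, a cytochrome oxidase subunit, was 670, 595 and 575 against 650, 661 and 679 untreated and 334, 322 and 313 against 620, 615 and 603 with doxycycline. The response was -0.90 in the control line and 0.10 in the Falcor line, giving 1.00 ± 0.09 (adjusted p = 3.15e-08), or 0.65 with the length trend removed and without the outlying library. Ndufs1 had -0.56 and Ndufs8 0.51, the latter 0.20 with the length trend removed.

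Among lipid-burning genes no tested member was called higher. Fatty acid oxidation and the PPAR alpha programme supply energy in fasting liver. Pdk4, which restrains pyruvate oxidation, was 9, 10 and 10 against 56, 59 and 58 untreated and 1, 1 and 2 against 2, 2 and 2 with doxycycline. In the restored state it was 2, 3 and 3 against 9, 10 and 9. The untreated Falcor line was thus the highest group, and the interaction was -1.88 (adjusted p = 2.2e-07).

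Cpt1a, the entry step of fatty acids into mitochondria, was 109, 160 and 159 against 279, 280 and 274 untreated and 133, 134 and 136 against 93, 92 and 96 with doxycycline (-1.30). Here the difference crossed 0, and the control line hardly responded (-0.04) while the Falcor line fell by 1.34 on the log2 scale. The low untreated control value of 109 is that of the outlying library and enters the control response. Without that library the untreated difference was 0.64 and the interaction -1.16. Acsl1, which activates fatty acids, had -1.07. Of the 26 tested members 0 were higher and 21 lower, and the other 5 (Acaa1a, Eci1, Etfb, Acot2 and Plin2) lay between -0.09 and 0.11. With no rescaling 25 were lower, and with the length trend removed 24. The median response was -0.82 in the Falcor line and -0.32 in the control line. In the conventional libraries 4 of 26 were higher and 17 lower, with Cpt1a at 0.16 (edgeR adjusted p = 0.0339).

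Cholesterol synthesis and uptake, the targets of SREBP2, gave 18 higher and 3 lower of 26 with a median of 0.31, but 10 higher and 5 lower with no rescaling. Fdft1 and Mvk, enzymes of the pathway, had 0.81 and 0.79. Idi1, an isomerase of isoprenoid units, was 47, 52 and 50 against 75, 72 and 75 untreated and 67, 71 and 67 against 45, 46 and 47 with doxycycline. The lines were fully apart in both states, with the Falcor line the higher untreated and the lower with doxycycline. Idi1 and Hmgcs1, enzymes of the same pathway, were lower, at -0.94 and -0.82, as was Ggps1 (-0.39), which leads to a side branch.

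**Figure D4:**
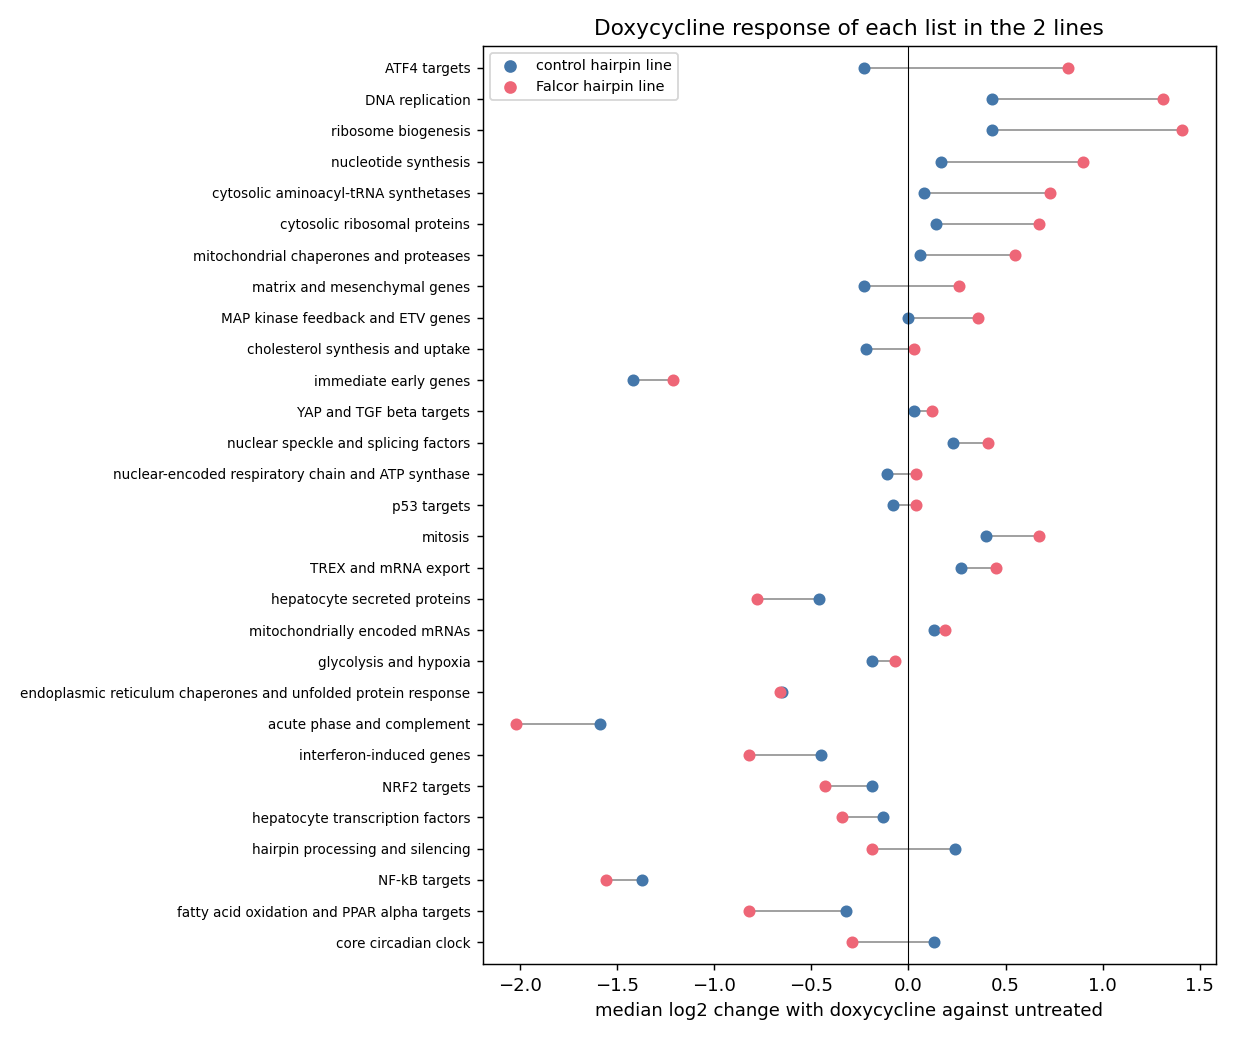
Median doxycycline response (log2, doxycycline minus untreated, horizontal axis) of each gene list in the control line (blue) and the Falcor line (red), ordered by the list's median interaction. For ribosome biogenesis the medians are 0.43 and 1.41 and for fatty acid oxidation -0.32 and -0.82, while immediate early, NF-kB and acute phase genes lie far below 0 in both lines.

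Liver-type genes were divided. Of 10 secreted proteins of hepatocytes tested 3 were higher (Gc 0.77, Rbp4 0.52 and Trf 0.26) and 4 lower, with Rbp4 at 0.22 once the length trend was removed. Ttr, the carrier of thyroid hormone, was 416, 393 and 406 against 1131, 1175 and 1215 untreated and 545, 521 and 529 against 334, 324 and 332 with doxycycline (-2.02 ± 0.06, adjusted p = 1.04e-13). Its conventional difference was -5.29 (edgeR adjusted p = 1.6e-06). Apob, the backbone of very low density lipoprotein, was 6, 21 and 21 against 39, 39 and 36 untreated and 50, 53 and 52 against 20, 19 and 20 with doxycycline (-2.54). The low first value is that of the outlying library, and with the length trend removed and without that library the interaction was -1.54. Alb was -0.93 and Hpx, the haem carrier, -0.60.

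Hepatocyte transcription factors gave 4 higher and 9 lower of 19, with a median of -0.28. Onecut2 was 3, 5 and 5 against 11, 10 and 10 untreated and 13, 14 and 14 against 6, 6 and 6 with doxycycline, rising in the control line and falling in the Falcor line. Its interaction was -2.01, or -1.20 with the length trend removed. Onecut1, Hnf4a and Nr1h4, the bile acid receptor, had -1.04, -0.72 and -0.71. Foxa1 was 9, 10 and 10 against 12, 10 and 11 untreated and 8, 10 and 8 against 16, 15 and 15 with doxycycline (0.78). Cebpb, a factor of acute phase and regeneration, had 0.85, or 0.56 with the length trend removed and without the outlying library, and Zhx2 had 0.28.

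Inflammatory genes had negative median responses to doxycycline in both lines. Among NF-kB targets 8 were higher and 12 lower of 23, with a median of -0.43 and median responses of -1.37 and -1.56 in the control and Falcor lines. Cxcl5, a neutrophil chemokine, was 65, 63 and 57 against 547, 560 and 560 untreated and 6, 7 and 7 against 17, 19 and 19 with doxycycline (-1.62). Csf3, the granulocyte growth factor, was 1, 1 and 1 against 12, 13 and 12 untreated and at most 1 in the 6 libraries with doxycycline (-2.23, and -1.48 with a pseudocount of 4). Csf3 passed the minimum mean only through the untreated Falcor line. Tnfaip2 and Cxcl2 had -2.33 and -1.02, the latter -0.48 with a pseudocount of 0.5. Nfkbie and Birc3, inhibitors of NF-kB and of caspases, had -1.10 and -1.04. Saa3, an acute phase protein, was 209, 183 and 184 against 288, 310 and 287 untreated. With doxycycline it was 0 in the 3 control libraries and 1, 4 and 2 in the Falcor line, so its interaction of 1.26 depends on the pseudocount and was 0.24 (adjusted p = 0.254) with a pseudocount of 4.

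Complement C3 was 164, 270 and 271 against 706, 725 and 703 untreated and 11, 11 and 10 against 15, 15 and 16 with doxycycline (-0.95, or -0.59 with the length trend removed and without the outlying library). Of 13 acute phase and complement genes tested 4 were higher and 6 lower, against 34% and 31.2% over all genes, with a median of -0.06. The higher ones included Saa3, given above. Il6ra, Lbp, Crp and Stat3 were among the lower, at -1.71, -1.21, -1.12 and -0.54 (Stat3 was -0.22 with the length trend removed). Interferon-induced genes gave 2 higher (Adar 0.26 and Bst2 0.24) and 6 lower of 13. Besides Isg20 the lower ones included the RNA sensors Eif2ak2 (-1.07) and Ddx58 (-0.95), Ifit2 (-0.87) and Irf1 (-0.35), all smaller in size than Isg20.

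Immediate early genes, whose transcripts appear within minutes of a stimulus, gave 12 higher and 5 lower of 21, with a median of 0.28, and 8 higher and 7 lower with a median of 0.09 with no rescaling. Egr1 was 321, 376 and 375 against 617, 622 and 632 untreated and 57, 56 and 59 against 161, 158 and 160 with doxycycline. It fell in both lines and less so in the Falcor line (0.85). Atf3, Junb and Ier5 had 0.92, 0.74 and 0.69, Fosl1 0.98 and Egr2 -1.30. The conventional libraries gave 2 higher and 15 lower of 20. Among MAP kinase feedback genes, Etv4, a growth factor-induced ETS factor, was 12, 12 and 12 against 2, 3 and 3 untreated and 22, 22 and 23 against 28, 26 and 28 with doxycycline (2.27). Areg, an EGF receptor ligand, had 1.58, Dusp4 0.90, Phlda1 0.82, Ccnd1 0.58 and Errfi1 -0.71, and 9 of the 15 were higher and 5 lower, or 6 and 6 with no rescaling.

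Of YAP and TGF beta targets 9 were higher and 3 lower of 18, or 5 and 6 with no rescaling. Ccn2, a matricellular target of YAP, was 783, 827 and 820 against 486, 502 and 497 untreated and 797, 808 and 820 against 914, 905 and 924 with doxycycline (1.08). In the restored state it was 743, 742 and 731 against 145, 144 and 149, a difference of -2.49, larger than in either state of the interaction. Tnnt2, Ajuba and Ankrd1 had 2.12, 1.05 and 0.64. Skil, a repressor of SMADs, had -1.61. Tead1 had -0.71, or -0.45 without untreated control replicate 1 and -0.15 (adjusted p = 0.0951) with the length trend removed. Matrix and mesenchymal genes gave 9 higher and 5 lower of 16, with Cdh2 at 1.09 and S100a4 at 0.95, and with Mmp28, an extracellular protease, at -2.76.

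NRF2 targets, the antioxidant programme, gave 7 higher and 15 lower of 26, with a median of -0.27 and of -0.38 with the length trend removed. Akr1b7, an aldose reductase-like enzyme, was 10, 10 and 10 against 210, 229 and 227 untreated, 6, 5 and 6 against 17, 17 and 16 with doxycycline, and 23, 21 and 26 against 95, 100 and 100 in the restored state. The Falcor line was the higher in all 3 states, and the gap was narrowest with doxycycline. Ephx1, Mgst1, Gsta4, Akr1b10 and Gclm, enzymes of detoxification and glutathione synthesis, had -0.97, -0.97, -0.96, -0.86 and -0.69, with Gclm at -0.40 once the length trend was removed. Glycolysis and hypoxia genes were split at 8 higher and 7 lower of 20 (6 and 10 with no rescaling), with Ldha, Eno1 and Gapdh at 0.92, 0.87 and 0.58 and the hypoxia-induced Ndrg1 and Bnip3 at -1.25 and -1.04. Pfkp had -0.52, and Gapdh was 0.34 with the length trend removed.

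Core circadian clock genes gave 3 higher (Nfil3 1.05, Nr1d1 0.59 and Bhlhe40 0.49) and 7 lower of 11. Per2, a repressor of the loop, was 3, 4 and 4 against 10, 10 and 10 untreated and 4, 4 and 4 against 3, 3 and 3 with doxycycline (-1.40). Arntl, its activator, was 8, 12 and 12 against 19, 20 and 20 untreated and 12, 12 and 12 against 9, 9 and 9 with doxycycline (-1.04). The harvest time of the libraries is not given in the sources used here. Clock, Bhlhe41 and Cry2 had -1.08, -0.98 and -0.78, and with the length trend removed Clock was -0.53 and Bhlhe41 -0.65.

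Genes of nuclear speckles and splicing, the bodies in which the series places Falcor, had no stable direction as a list: 17 were higher and 12 lower of 43 with a median of 0.17, but of -0.02 with no rescaling. Srsf7, an SR protein, was 145, 132 and 135 against 85, 86 and 85 untreated and 141, 145 and 143 against 156, 162 and 160 with doxycycline (1.03). U2af2, Snrpb, Snrnp70, Rnps1 and Prpf31 had 1.01, 0.98, 0.95, 0.95 and 0.87. Of 30 TREX and mRNA export genes 11 were higher and 7 lower, with a median of 0.07 that was -0.12 with no rescaling and 0.20 with the length trend removed. Thoc2, the scaffold of the THO complex, was 3, 5 and 4 against 9, 10 and 8 untreated and 13, 13 and 14 against 9, 8 and 9 with doxycycline (-1.42). Nxt1 and Rae1 had 1.15 and 0.80, and Tpr, Nxt2 and Zc3h14 had -1.10, -0.85 and -0.80, with Tpr at -0.68 once the length trend was removed.

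Genes of the machinery that processes hairpins moved in both directions. Of 10 tested 3 were higher (Tarbp2 1.39, Xpo5 0.88 and Dgcr8 0.37) and 6 lower, against 34% and 31.2% over all genes. The median transcript length of the list was 6154 bases, and with the length trend removed 4 were higher and 4 lower. Tarbp2, a partner of Dicer, was 29, 29 and 27 against 12, 16 and 18 untreated and 29, 28 and 29 against 36, 37 and 37 with doxycycline. Ago1 was 3, 5 and 5 against 7, 6 and 6 untreated and 5, 5 and 5 against 2, 2 and 2 with doxycycline (-1.33). Tnrc6a and Tnrc6b, the GW182 partners of Argonaute, had -1.26 and -1.53, or -0.79 and -0.69 with the length trend removed. Ago2 had -0.78, or -0.51 without untreated control replicate 1 and -0.06 (adjusted p = 0.405) with the length trend removed.

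Several genes with a very large interaction fell outside these groups. Ly6c1, a surface antigen, was 26, 27 and 23 against 7, 8 and 8 untreated and 3, 2 and 1 against 5, 5 and 6 with doxycycline, so the sign of the difference turned as the control line fell (2.92). Marcksl1, an actin-binding protein, was 14, 14 and 13 against 20, 18 and 20 untreated and 10, 12 and 10 against 47, 45 and 42 with doxycycline (1.69). Wnt4 was 18, 16 and 17 against 57, 59 and 58 untreated and 8, 9 and 9 against 3, 4 and 4 with doxycycline (-2.59). Deptor, an inhibitor of mTOR, was 5, 8 and 7 against 24, 26 and 24 untreated and 6, 6 and 6 against 3, 3 and 2 with doxycycline (-2.54). Gjb1, the gap junction protein of hepatocytes, had -2.40, and Aspa, which cleaves N-acetylaspartate, -2.73. With the conventional Falcor hairpin Wnt4, Deptor and Gjb1 were all lower, at -1.79, -1.11 and -2.17 (edgeR adjusted p = 1.3e-11, 7.93e-09 and 1.67e-06). Of the 24 named genes with the largest interactions in either direction 19 were tested there. Of these 11 were called, 3 higher and 8 lower.

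Among noncoding RNAs, Mirt1 and Wincr1 had 2.05 and 2.04. The small nucleolar RNAs Snora78 and Snora73b had 2.23 and 2.17 with wide spreads (SE 0.72 and 0.90). The Snora73b call (adjusted p = 0.0485) was lost in most alternatives, for example at 1.55 (adjusted p = 0.122) without untreated Falcor replicate 2. Reads within these short RNAs may also come from their host genes.

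The restored libraries are no term of the interaction, but they shared its scaling and its estimate of the spread: with only the 12 libraries 6096 genes were called. Their hairpin difference lay nearer to the untreated than to the doxycycline difference in 5225 of 6416 called genes (81.4%). The share was 58.8% of genes not called. In those the untreated and doxycycline differences mostly lie close together by selection, so their share is no baseline for called genes. Among called genes over 1 in size, chosen for a wide gap between the same differences, the shares were 91.7% of 409 higher genes and 88.6% of 605 lower genes. In the 605 the median difference was 0.73 untreated, -0.58 with doxycycline and 0.41 restored, and in the 409 it was -0.86, 0.34 and -0.63. The restored median thus lay between the untreated and doxycycline medians in both sets, and single genes varied. Isg20 had a restored difference of -0.60 against 0.40 untreated, and Atp5g1 had -0.72 against -0.43. Tlcd3a had -0.05 in both states, and Falcor 0.86 restored against 0.75 untreated.

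The conventional hairpin libraries, separate samples with 4474760 to 8837581 counts each, gave a readout that shares no sample with the interaction. Of the genes tested in both, 28% were higher and 28.3% lower with the conventional Falcor hairpin. The conventional counts of list members, above and below, are to be read against these shares. Of genes with a higher interaction 34.4% were higher there and 20% lower, and of genes with a lower interaction 20.5% were higher and 42.8% lower. Over 1 in size, 43.1% of 371 higher genes were higher and 10.2% lower, and 14.8% of 581 lower genes were higher and 55.1% lower. The ordering was present in each of the 5 length groups, from 22% higher and 23.7% lower among higher genes of the shortest group, against 13.1% and 41.9% among its lower genes, to 47.7% and 14.9% against 24.1% and 44.1% in the longest. The conventional difference itself had a rho of -0.01 with length. Arose genes gave 42.6% higher and 20.5% lower where the interaction was higher, and 19.7% and 37.5% where it was lower. Several lists did not follow this order. Ribosomal proteins, given above, went the other way. DNA replication genes were mostly not called there (25.8% called, against 56.4% of all genes tested in both). Other lists were more often lower than higher there, while their interactions split nearly evenly with no rescaling. These were immediate early genes, given above, and MAP kinase feedback genes (1 higher and 10 lower of 15). Nuclear speckle and splicing genes (6 and 18 of 43) and YAP and TGF beta targets (6 and 10 of 18) also belonged to them.

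**Figure D5:**
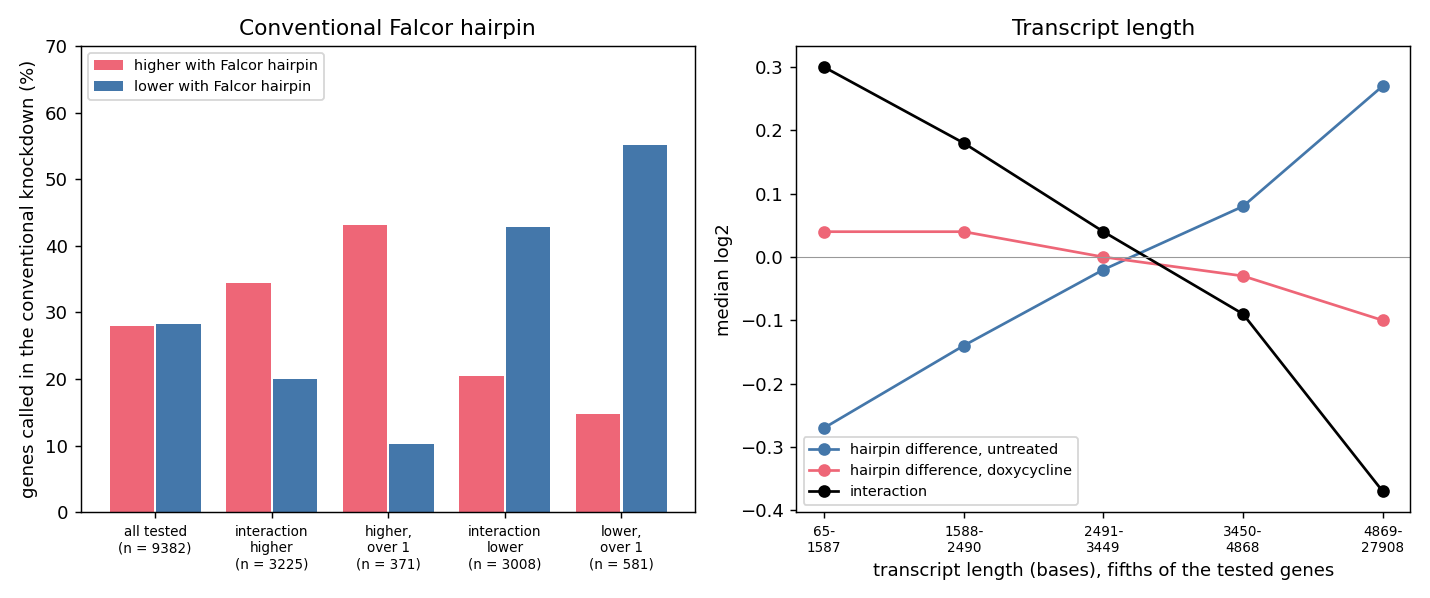
Left, share of genes called higher (red) or lower (blue) in the conventional Falcor knockdown (vertical axis, %), over all genes tested in both tables and by the direction and size of the interaction; right, median log2 value over 5 equal groups of genes by transcript length in bases. Higher genes over 1 are at 43.1% against 10.2% and lower genes over 1 at 14.8% against 55.1%, and the median interaction falls from 0.30 in the shortest group to -0.37 in the longest.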

How the data were processed

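The inducible table holds whole-number values per gene symbol that, per the file headers, carry no unit. Since column sums lay between 859568 and 883564, they were treated as an abundance score scaled and rounded by the authors and not as counts. The conventional table holds counts per gene deposited by the authors. Per the submitters' processing notes the tools were kallisto and DESeq2 and the build mm10, with no version stated; libraries were rRNA-depleted and stranded per the labels' protocols. Values were scaled by TMM over 18 libraries, taken as log2(value + 1), and fitted with limma 3.58.1 (trend and robust, group means, Benjamini-Hochberg over 9834 genes); fold changes on this scale understate low genes. The conventional table was tested with edgeR 4.0.16 (quasi-likelihood). The script was tested on simulated data, where 52% of genes changed by 0.5, 88% by 1 and 100% by 2 were recovered, and 5 of 9634 unchanged genes were called. The simulated noise was independent between genes and libraries and held no length trend. It therefore cannot say how often unchanged genes were called in the real libraries. The named genes are Falcor, Foxa2 and Zc3h11a, the 12 largest called per direction, the 4 largest per pattern and direction, and up to 6 members per list. The largest genes and those per pattern were taken among called genes with a symbol that is not a predicted gene or clone. They also needed a highest group mean of at least 5 and the same sign with no rescaling. List members were taken by absolute interaction without these filters, called or not. Members that went against their list or made up a small count, and ATF4 targets with a motif match, were named after their values were seen, and the lists of ribosome biogenesis and nucleotide synthesis were added then. Members and lists were chosen with earlier results of these data known. Transcript length is that of GENCODE vM21. Alternatives covered scaling, pseudocount, filters, a replicate block, a fold bound, length trend and leaving out each library. A few named genes are not reported here.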

Additional observations from a re-analysis of the deposited data

Results flagged for a closer look

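The effect of doxycycline differed between the 2 lines by the test of the interaction itself in 6416 genes, and in 2445 of them the hairpin difference was past the threshold in both states with opposite signs. The 4 named genes of this kind with the lowest interaction were Isg20 (-3.35), Mmp28 (-2.76), Aspa (-2.73) and Wnt4 (-2.59), and the 4 with the highest were Ly6c1 (2.92), Etv4 (2.27), Trmt61a (2.14) and Tnnt2 (2.12), on the log2 scale. The same held for Falcor (9030622O22Rik), at -1.53.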

How the results depend on the processing

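Called genes were counted under each alternative. Against a bound of 0.5 on the log2 scale (limma's treat) the calls fell from 6416 to 1797 for the interaction, from 5166 to 283 for the hairpin difference with doxycycline, from 6439 to 891 for that without it, from 6562 to 1361 and from 7297 to 2788 for the doxycycline responses of the control and Falcor lines, and from 5693 to 639 in the restored state. Leaving out each library in turn gave 6134 to 6632, 4600 to 6014, 5963 to 6450, 6192 to 6766, 6950 to 7775 and 5157 to 6421 for these results, and 5434 to 5804 for the conventional hairpin (6111 with all libraries). The replicate block gave 6379 calls for the interaction; same-numbered libraries had correlated deviations of -0.16 to 0.16 (median 0.02), and 8 of 12 libraries correlated best with their own number. Over 6352 pairs of a named called gene and an alternative, 6260 kept sign and call, 92 lost the call and 0 reversed. Depth is unknown in the inducible table, so no counting error could be given.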
